A study of Mus musculus with 17 samples.

Results

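The genes described here are the amino acid transporter families Slc1, Slc6, Slc7, Slc36, Slc38 and Slc43 with the heavy chains Slc3a1 and Slc3a2, taken from the deposited expression table by their symbols and by no measured value. The rule took 56 symbols of the 18262 genes listed, and 55 of them are carriers or their subunits. The other, Slc7a6os, is a neighbour of Slc7a6 that codes for no carrier. A total of 42 passed the minimum for testing and 14 did not. By family the counts were 16 in Slc6, 13 in Slc7, 11 in Slc38, 7 in Slc1, 4 in Slc36, 3 in Slc43 and 2 in Slc3.

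Amino acid carriers differ in what they move and in what drives them. Exchangers of the Slc7 family form pairs with the heavy chain Slc3a2, also known as CD98, which brings the light chain to the cell surface, and let an amino acid in as another leaves. Slc1, Slc6 and Slc38 carriers use the sodium gradient to concentrate their substrates, and Slc36 carriers use protons. In the lung the carriers feed protein synthesis and glutathione in epithelium and in the leukocytes that enter the tissue. The families also hold relatives with other cargo, such as the noradrenaline carrier Slc6a2, the serotonin carrier Slc6a4, the taurine carrier Slc6a6, the creatine carrier Slc6a8 and the nucleobase carrier Slc43a3.

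The study sequenced RNA from lungs of C57BL/6 mice in 4 groups of 4 libraries, and from the injected cells in 1 library. Tumor-bearing mice had received 500000 M3-9-M rhabdomyosarcoma cells carrying firefly luciferase and mCherry in the calf muscle. Their lungs were taken on day 15, either after 8000000 IL12-GEMy cells given intravenously on day 12 (tumor_GEMy) or with no treatment (tumor_untreated). Mice without a tumor had received the same cells 3 days before (naive_GEMy) or nothing (naive_untreated). IL12-GEMy cells are bone marrow cells transduced with a lentivirus to secrete interleukin-12 and kept with SCF, FLT3L and IL-6, and this cell product was made from naive C57BL/6 marrow. No lung group here received cells without the interleukin-12 vector, so the cytokine and the transfer of cells cannot be told apart. Within the tumor-bearing mice a number in the sample descriptions was 1 in every untreated and 2 in every treated sample, so what it stands for cannot be told apart from the treatment.

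Values are reads per 1000000 assigned reads (RPM), and levels of different genes are compared as RPM per kb of exon. The recovered depth was 27566839 to 36815046 reads per lung library and 31111311 for the product. Correlations between replicate lungs were 0.98 to 0.996. Hemoglobin transcripts took 0.0735 to 4.15% of reads with the highest share in tumor_untreated replicate 4. Alveolar type 2 markers, such as the surfactant protein gene Sftpc, summed to 22030 to 33000 RPM in the lungs, with all 8 genes above 1 RPM in the median library of each group. In bulk tissue, fewer cells of a type and less RNA per cell cannot be told apart, and the labels do not say that each library is 1 animal, so p-values measure the spread between these samples, which may be technical.

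A muscle tumor at a distance came with a lung in which 5 carrier genes rose and 15 fell. Higher were the cystine and glutamate exchanger Slc7a11, the neutral amino acid exchangers Slc7a8 and Slc7a5, the glutamine and alanine carrier Slc38a2 and the cationic carrier Slc7a1. The largest falls were in Slc7a10, a carrier of small neutral amino acids, the glutamate carrier Slc1a1, the glutamine carrier Slc38a5 and the proton-coupled Slc36a2. These counts are of tumor_untreated over naive_untreated lungs in a limma fit over 15422 genes, at an adjusted p below 0.05. Of the 42 members tested, 11.9% were called higher and 35.7% lower, against 14.7% and 26.0% of all genes. The median log2 fold change was -0.13 for the members and -0.09 for all genes. Groups did not overlap for 5 members in the higher and 12 in the lower direction, against 12.1% and 23.4% of all genes. Median-of-ratios scaling called 8 members higher and 9 lower, and 3102 and 2521 among all genes in place of 2271 and 4006, so the balance of rises and falls depends on the scaling. The falls of Slc1a5, Slc38a10, Slc6a9, Slc6a14, Slc6a17 and Slc6a20a were not called with that scaling. With summed hemoglobin as a covariate the falls of those genes other than Slc6a9 ended, leaving 5 higher and 10 lower, and a fit of the compared groups alone ended the same 5 falls and the rise of Slc7a1. Without tumor_untreated replicate 4, which ended those 5 falls and the rise of Slc7a1, the lower count was 10, and without naive_untreated replicate 4 it was 9.

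Promoter sequences are given for the genes with the 3 largest rises, because Slc7a11 and Slc38a2 are textbook targets of ATF4, a factor that switches on carriers when amino acids run short. They are the 250 bases before the RefSeq gene start (GRCm38.p6, minus strand in all 3, read 5′ to 3′), with capitals marking the motif matches described after them. The windows are chr3:50443614-50443863 for Slc7a11, chr14:54781887-54782136 for Slc7a8 and chr15:96699729-96699978 for Slc38a2.
Slc7a11: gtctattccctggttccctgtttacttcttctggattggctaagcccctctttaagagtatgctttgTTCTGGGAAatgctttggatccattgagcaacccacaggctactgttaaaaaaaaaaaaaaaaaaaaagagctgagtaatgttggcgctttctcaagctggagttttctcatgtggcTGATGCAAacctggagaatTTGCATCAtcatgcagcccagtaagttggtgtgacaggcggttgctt
Slc7a8: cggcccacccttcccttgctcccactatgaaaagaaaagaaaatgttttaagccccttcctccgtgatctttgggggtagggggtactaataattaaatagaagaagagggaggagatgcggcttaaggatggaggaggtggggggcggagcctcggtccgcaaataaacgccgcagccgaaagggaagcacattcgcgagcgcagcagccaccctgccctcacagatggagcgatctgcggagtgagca
Slc38a2: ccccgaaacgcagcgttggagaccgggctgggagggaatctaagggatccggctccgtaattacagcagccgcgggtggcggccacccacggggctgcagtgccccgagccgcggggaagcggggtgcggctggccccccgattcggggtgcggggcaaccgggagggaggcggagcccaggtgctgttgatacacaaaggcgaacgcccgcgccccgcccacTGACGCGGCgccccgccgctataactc
Motifs of 3 kinds were searched on both strands, in windows that also hold the first bases after the start. The ATF4 and CEBP composite was written TGATGNAA, the STAT motif TTCNNNGAA and the NRF2 and MAF core TGACNNNGC, where N is any base. The first occurred in 3.97%, the second in 8.30% and the last in 12.4% of 32851 promoter windows. Slc7a11 held the composite on one strand at 66 to 59 and on the other at 47 to 40 bases before the start, and a STAT match at 183 to 175. Slc38a2 had the NRF2 and MAF core at 27 to 19 bases before the start. Slc7a8 had no match. Among the 40 members with a RefSeq window, 3 held the composite (Slc1a4, Slc7a11 and Slc7a7), 4 the STAT motif (Slc1a3, Slc38a9, Slc7a1 and Slc7a11) and 7 the NRF2 and MAF core. Counted by window, as the shares above are, 4, 4 and 9 of their 58 windows held these motifs. A match is a string of letters in this window and was not tied to binding in these samples. Sequence outside the windows was not searched, so the lack of a match says nothing about it.

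Slc3a2, the shared heavy chain, was among the most abundant members and did not pass the test in any comparison. Its values were 300.5, 265, 260.0 and 224 RPM in tumor_GEMy, 297, 272, 256 and 262 RPM in tumor_untreated, 268, 265, 239 and 266 RPM in naive_GEMy and 221, 246, 233 and 290.5 RPM in naive_untreated lungs. The 4 groups overlapped. The largest of its pairwise log2 fold changes was 0.14 ± 0.09 (SE), adjusted p = 0.244, in tumor_untreated over naive_untreated lungs.

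Its light chains moved in opposite directions. Slc7a11, whose imported cystine feeds glutathione synthesis, had 8.21, 10.7, 13.8 and 19.8 RPM in tumor_untreated lungs, against 3.94, 4.71, 5.91 and 4.71 RPM in naive_untreated lungs. All 4 tumor_untreated libraries lay above all naive_untreated ones, and they spread more widely among themselves. The log2 fold change was 1.30 ± 0.20 (SE), adjusted p = 0.000113. Slc7a8, also called LAT2, had 12.8, 16.1, 20.7 and 22.8 RPM in tumor_untreated and 7.37, 8.56, 8.47 and 10.2 RPM in naive_untreated lungs. The groups did not overlap, with a log2 fold change of 1.00 ± 0.15 (SE), adjusted p = 5.98e-05. Slc7a5, or LAT1, the carrier of leucine and other large neutral amino acids, had 26.2, 20.9, 22.0 and 34.5 RPM in tumor_untreated lungs, against 16.0, 13.6, 17.4 and 17.7 RPM in naive_untreated lungs. Here too every tumor_untreated library was above every naive_untreated one, and the log2 fold change was 0.64 ± 0.16 (SE), adjusted p = 0.00404. Slc7a10, or Asc-1, went the other way, at 13.7, 14.1, 13.9 and 10.3 RPM in tumor_untreated and 28.3, 20.9, 22.8 and 23.7 RPM in naive_untreated lungs. The tumor_untreated libraries were all lower, replicate 4 lowest, with a log2 fold change of -0.86 ± 0.13 (SE), adjusted p = 0.000107. Slc7a10 shares 235 bases with Lrp3 on the opposite strand, and with no strand setting given in the sources used here, reads there cannot be assigned. These 4 calls held in each of the 26 or 27 alternative fits of their comparison.

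**Figure D1:**
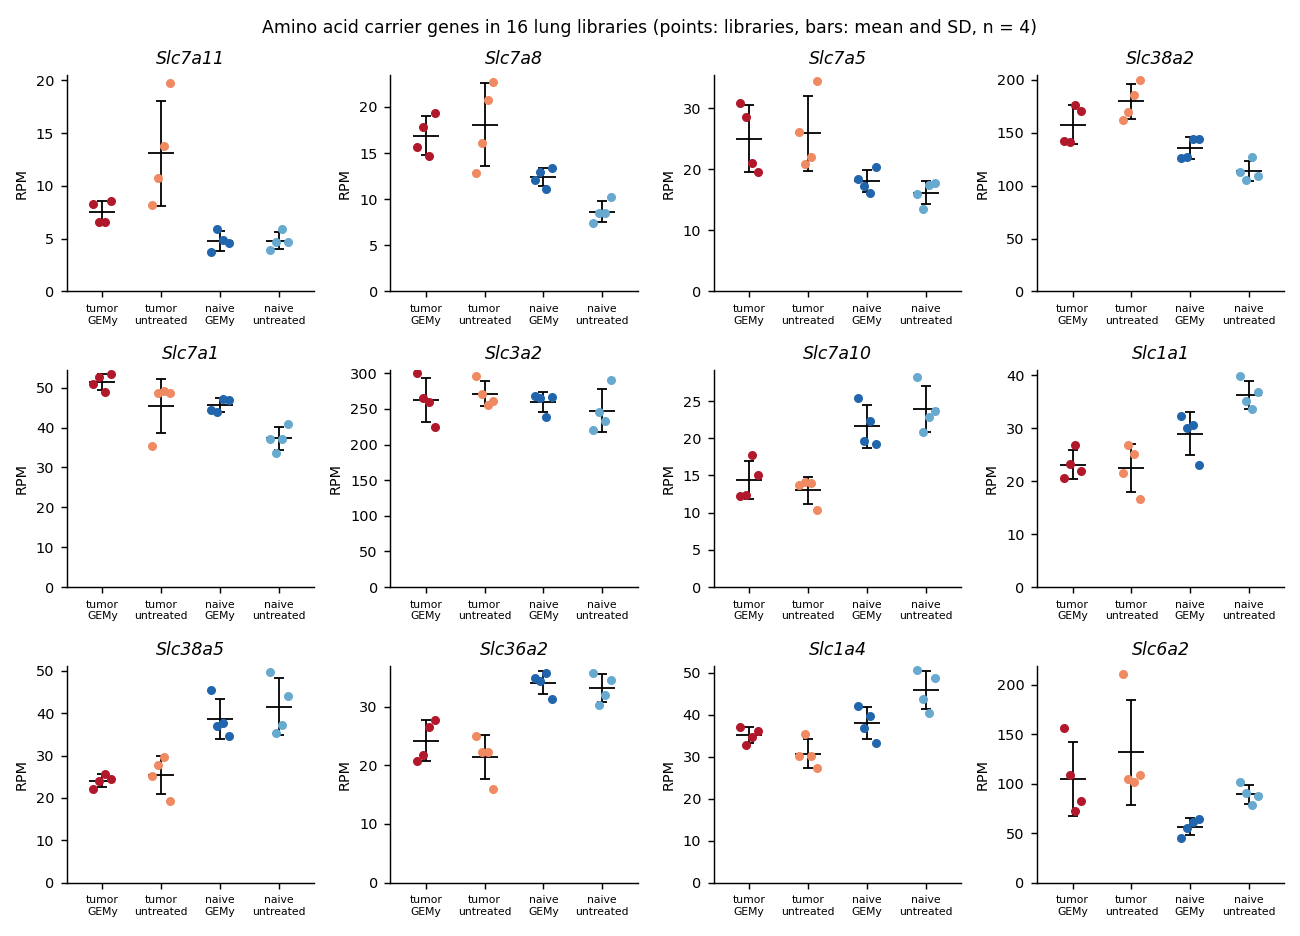
RPM in every lung library for 12 members, on axes from 0, with points for libraries and bars for the mean and SD (n = 4), from tumor_GEMy at the left to naive_untreated at the right. Slc7a11, Slc7a8, Slc7a5 and Slc38a2 lie higher in tumor_untreated than in naive_untreated lungs, and Slc7a10 and Slc38a5 lie lower, with no overlap.

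Seen as shares, the summed level of the 6 light chains stayed near the same in all lung groups while its make-up differed. The sum was 29.3 ± 1.18 RPM per exonic kb in tumor_GEMy, 30.6 ± 1.28 in tumor_untreated, 29.5 ± 1.76 in naive_GEMy and 30.3 ± 2.13 in naive_untreated lungs (SD, n = 4 each). Slc7a10 was 20.3 ± 3.43% of that sum in tumor_untreated and 37.3 ± 2.45% in naive_untreated lungs. Slc7a5 was 22.8 ± 4.73% in tumor_untreated and 14.4 ± 1.39% in naive_untreated lungs. Over the same groups Slc7a8 was 11.9 ± 2.51% in tumor_untreated and 5.80 ± 0.897% in naive_untreated lungs. Slc7a6 and Slc7a7, which exchange cationic for neutral amino acids, kept 15.1 to 17.3% and 23.2 to 26.0% in the 4 group means. Slc7a11 was the smallest part throughout, at 3.19 ± 1.08% in tumor_untreated and 1.20 ± 0.248% in naive_untreated lungs. These shares restate the levels above and were not tested.

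**Figure D2:**
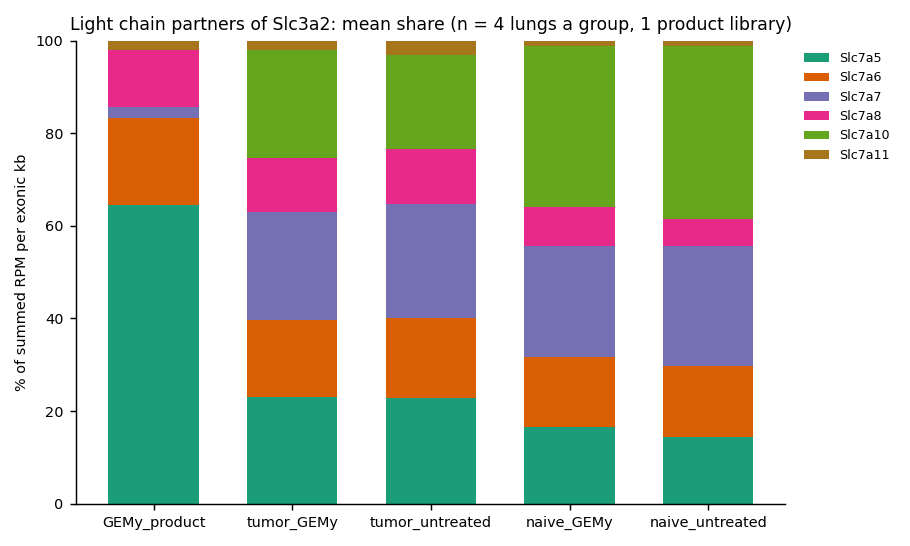
Share of each of the 6 Slc3a2 light chains in their summed RPM per exonic kb, in percent, for the cell product (1 library) and the 4 lung groups (means of 4). Slc7a5 makes up 64.6% in the product and 14.4% in naive_untreated lungs, and Slc7a10 is 0 in the product and 37.3% in naive_untreated lungs.

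Carriers of glutamine split in the same comparison. Slc38a2, or SNAT2, had 162, 170.1, 186 and 200.3 RPM in tumor_untreated and 113, 105, 127 and 109 RPM in naive_untreated lungs. Its groups were clearly apart, with a log2 fold change of 0.66 ± 0.09 (SE), adjusted p = 3.71e-05. Slc38a5, or SNAT5, had 25.2, 27.8, 29.6 and 19.3 RPM in tumor_untreated lungs, against 49.7, 35.2, 37.1 and 44.1 RPM in naive_untreated lungs, and its log2 fold change was -0.70 ± 0.13 (SE), adjusted p = 0.000423 with no overlap. Slc1a5, or ASCT2, which was above Slc38a1, Slc38a2 and Slc38a5 per exonic kb in naive_untreated lungs, had 134, 109.8, 107 and 103 RPM in tumor_untreated and 139, 124, 123 and 147 RPM in naive_untreated lungs. These groups overlapped, because tumor_untreated replicate 1 was within the naive_untreated range. The log2 fold change was -0.23 ± 0.08 (SE), adjusted p = 0.0322, and the call ended in 5 of 16 fits that each left out a library, with an adjusted p of 0.0704 to 0.107 (0.101 without tumor_untreated replicate 4), and at 0.194 with median-of-ratios scaling. Slc38a1, or SNAT1, did not pass, at 73.8 ± 5.13 RPM in tumor_untreated and 69.95 ± 4.76 RPM in naive_untreated lungs (SD, n = 4 each). Of the summed level of these 4 carriers per exonic kb, Slc38a2 was 31.9 ± 3.89% in tumor_untreated and 18.9 ± 2.22% in naive_untreated lungs, and Slc38a5 was 18.9 ± 3.03% in tumor_untreated and 28.6 ± 2.52% in naive_untreated lungs. Slc38a10, a broadly expressed and little studied member, had 204, 201, 204 and 171 RPM in tumor_untreated and 219, 219.9, 212 and 237 RPM in naive_untreated lungs. Without replicate 4 of tumor_untreated, its lowest library, the log2 fold change of -0.19 ± 0.07 (SE), adjusted p = 0.0433 became -0.13 with an adjusted p of 0.151.

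Among the 5 tested Slc1 genes, which carry glutamate or serine, Slc1a1, Slc1a3 and Slc1a4 were called lower beside Slc1a5, where 26.0% of all genes were lower. The other, Slc1a2, did not pass, with a log2 fold change of -0.30 ± 0.15 (SE), adjusted p = 0.124 and overlapping groups. Slc1a1, which takes up glutamate and cysteine, had 21.5, 26.9, 25.1 and 16.6 RPM in tumor_untreated and 39.8, 35.1, 33.7 and 36.8 RPM in naive_untreated lungs, with no overlap and a log2 fold change of -0.70 ± 0.13 (SE), adjusted p = 0.00063. Slc1a4, or ASCT1, a serine and alanine carrier, had 30.1, 35.4, 30.1 and 27.3 RPM in tumor_untreated lungs, against 50.6, 43.8, 40.5 and 48.7 RPM in naive_untreated lungs. Every tumor_untreated library was again lower, and the log2 fold change was -0.57 ± 0.09 (SE), adjusted p = 0.000154. Slc1a3, a glutamate carrier best known from astrocytes, had a log2 fold change of -0.43 ± 0.09 (SE), adjusted p = 0.00184, at 33.6 ± 4.03 RPM in tumor_untreated and 45.2 ± 4.13 RPM in naive_untreated lungs (SD, n = 4 each).

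In the proton-coupled Slc36 family, Slc36a2 fell and Slc36a1 did not pass the test. Slc36a2 had 25.01, 22.3, 22.4 and 16.1 RPM in tumor_untreated and 35.8, 30.4, 32.1 and 34.5 RPM in naive_untreated lungs, with a log2 fold change of -0.63 ± 0.12 (SE), adjusted p = 0.000539. The groups did not overlap. Slc36a1, which exports amino acids from lysosomes, had 28.4, 28.3, 32.7 and 26.8 RPM in tumor_untreated and 25.5, 27.2, 27.1 and 26.1 RPM in naive_untreated lungs. That difference, 0.13 ± 0.07 (SE), adjusted p = 0.170, was called with median-of-ratios scaling, where it was 0.22 with an adjusted p of 0.0223. Slc36a2 and Slc7a10 are also known as surface markers of adipocytes. Of 7 adipocyte markers picked after these values were seen, 6 were tested and 0 passed in this comparison, and they summed to 69.5 to 92.0 RPM in tumor_untreated and 90.3 to 106 RPM in naive_untreated lungs.

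The cationic carriers supply arginine. Slc7a1, or CAT1, had 35.4, 48.6, 49.2 and 48.6 RPM in tumor_untreated and 37.1, 33.7, 37.2 and 40.9 RPM in naive_untreated lungs. Replicate 1 of tumor_untreated lay inside the naive_untreated range while the other libraries lay above it. The log2 fold change was 0.27 ± 0.09 (SE), adjusted p = 0.0248, and 4 of 16 fits without a library ended the call, among them those without tumor_untreated replicates 2, 3 or 4, with an adjusted p of 0.0710 to 0.0830. Slc7a2, or CAT2, which macrophages induce with arginine-using enzymes, did not pass in any comparison. It had 49.9, 57.0, 58.3 and 65.9 RPM in tumor_GEMy, 55.7, 43.3, 42.1 and 52.1 RPM in tumor_untreated, 38.9, 49.7, 51.4 and 59.3 RPM in naive_GEMy and 54.9, 52.8, 56.0 and 49.3 RPM in naive_untreated lungs, with overlapping groups. Slc7a4, a relative of these carriers, had a log2 fold change of -0.59 ± 0.11 (SE), adjusted p = 0.000416, with no overlap.

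Called falls in the Slc6 family were smaller than the 4 largest falls, and all but that of Slc6a8 ended in some alternative fit. Slc6a9, the glycine carrier GLYT1, had 45.4, 37.7, 38.1 and 36.2 RPM in tumor_untreated lungs, against 47.7, 47.5, 47.0 and 54.5 RPM in naive_untreated lungs. The groups were apart, with a log2 fold change of -0.32 ± 0.10 (SE), adjusted p = 0.0144, but the adjusted p was 0.0867 with median-of-ratios scaling and 0.0514 without naive_untreated replicate 4. Slc6a14, a carrier of broad range in airway epithelium, had 67.5, 56.6, 51.8 and 33.2 RPM in tumor_untreated and 75.4, 72.8, 70.02 and 66.7 RPM in naive_untreated lungs. Its groups overlapped, and the call (-0.49 ± 0.18 (SE), adjusted p = 0.0441) ended in 9 of 16 fits that left out a library, the value being -0.29 without tumor_untreated replicate 4. The creatine carrier Slc6a8 had a log2 fold change of -0.45 ± 0.12 (SE), adjusted p = 0.00753, with no overlap. Its call held in all 27 alternative fits. Slc6a17 and Slc6a20a, both at low level, were called lower with adjusted p-values of 0.0436 and 0.0419. Both calls ended without tumor_untreated replicate 4, where Slc6a17 was at 0.185 RPM. Slc6a20a lies 4368 bases from its close copy Slc6a20b, and the counting could split reads between them.

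Monoamine carriers varied widely between replicates of the tumor groups. Slc6a2 had 156, 109, 72.1 and 82.8 RPM in tumor_GEMy, 211, 105, 102 and 108 RPM in tumor_untreated, 45.0, 55.6, 61.6 and 64.3 RPM in naive_GEMy and 101, 90.4, 78.2 and 87.6 RPM in naive_untreated lungs. Replicate 1 was the highest library in both tumor groups. All naive_GEMy libraries were below all naive_untreated ones, but the log2 fold change of -0.66 ± 0.24 (SE), adjusted p = 0.123 did not pass. Slc6a4, known from platelets and lung endothelium, had 24.8, 11.5, 6.75 and 8.32 RPM in tumor_GEMy, 14.7, 9.21, 7.36 and 15.7 RPM in tumor_untreated, 8.34, 9.15, 8.19 and 10.6 RPM in naive_GEMy and 9.84, 13.1, 10.4 and 10.7 RPM in naive_untreated lungs, and it passed in no comparison. Summed platelet markers were 386 RPM in tumor_GEMy replicate 1 and 295 RPM in tumor_untreated replicate 4, the libraries with the highest Slc6a4 of their groups, against 109.6 to 229 RPM in the other tumor libraries. Their part in the Slc6a4 values was not tested. Of 5 noradrenergic neuron genes picked after these values were seen, 4 are listed, and they summed to at most 3.79 RPM in any lung.

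**Figure D3:**
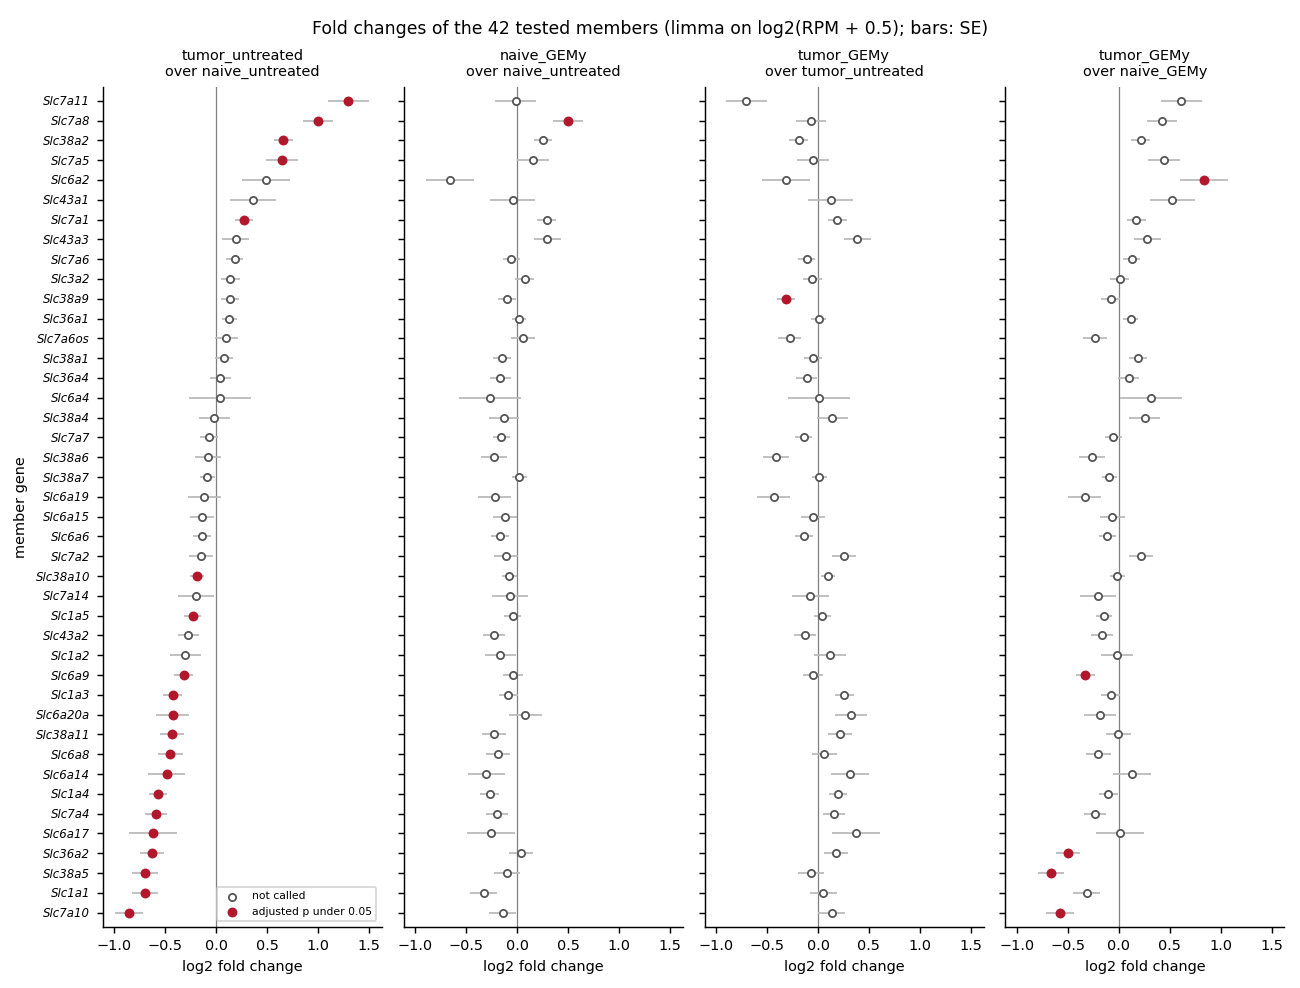
Log2 fold changes with their SE for the tested members in the 4 pairwise comparisons, filled red where the adjusted p was below 0.05. Most calls stand in the tumor_untreated over naive_untreated panel, from Slc7a11 at 1.30 to Slc7a10 at -0.86.

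IL12-GEMy cells given to mice without a tumor changed few of these genes. Slc7a8 was the 1 member called higher, or 2.38% of 42, against 5.12% of all genes. None was called lower, against 1.58% of all genes, although 4 members were higher and 4 lower at an unadjusted p below 0.05, and voom on the recovered reads called 0 in either direction. Slc7a8 had 12.1, 13.0, 11.1 and 13.4 RPM in naive_GEMy lungs, against 7.37, 8.56, 8.47 and 10.2 RPM in naive_untreated lungs. All 4 treated libraries were above all untreated ones. The log2 fold change was 0.50 ± 0.15 (SE), adjusted p = 0.0478, and the call ended in 11 of 16 fits without a library and in 5 of 10 other settings, the values staying between 0.43 and 0.58. Slc7a1 also had no overlap, at 44.4, 44.0, 47.1 and 47.0 RPM in naive_GEMy and 37.1, 33.7, 37.2 and 40.9 RPM in naive_untreated lungs, with 0.29 ± 0.09 (SE), adjusted p = 0.0670. Groups did not overlap for 3 members upward and 3 downward, against 8.68% and 8.69% of all genes. For Slc7a1 the adjusted p was 0.0167 in a fit of those groups alone and 0.00596 without tumor_untreated replicate 1. The median log2 fold change was -0.10 for the members and -0.04 for all genes. In naive_GEMy lungs Slc7a11 had 3.70, 5.96, 4.85 and 4.59 RPM, Slc7a5 18.5, 17.2, 16.2 and 20.3 RPM, Slc38a2 126, 127, 144 and 144 RPM and Slc1a5 140.1, 123, 128 and 124 RPM. Slc6a14 had 57.5, 65.1, 69.9 and 42.1 RPM, Slc36a1 24.9, 26.8, 28.6 and 27.2 RPM and Slc38a10 224, 216, 206 and 196 RPM in these lungs. All 7 overlapped the naive_untreated libraries and did not pass.

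In tumor-bearing mice the treatment came with 1 call among these genes. Slc38a9, the lysosomal carrier that reports arginine to mTORC1, was the 1 member called lower, or 2.38% of 42, against 2.81% of all genes. It had 15.0, 15.6, 18.2 and 16.6 RPM in tumor_GEMy and 19.7, 21.5, 21.2 and 19.2 RPM in tumor_untreated lungs. The groups did not overlap, and the log2 fold change was -0.32 ± 0.09 (SE), adjusted p = 0.0486. That call ended in 11 of 16 fits without a library, with values of -0.37 to -0.28 over all settings. Groups did not overlap for 3 members downward (Slc38a6, Slc38a9 and Slc6a19) and 0 upward, against 4.30% and 4.38% of all genes. No member was called higher, against 2.42% of all genes, while 4 were higher and 5 lower at an unadjusted p below 0.05 and voom called 0 higher and 1 lower.

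Slc7a11 had 8.29, 6.61, 6.63 and 8.55 RPM in tumor_GEMy lungs, against 8.21, 10.7, 13.8 and 19.8 RPM in tumor_untreated lungs. The groups overlapped at tumor_untreated replicate 1, and the log2 fold change of -0.70 ± 0.20 (SE), adjusted p = 0.0523 missed the threshold. Without that library it was -0.89 with an adjusted p of 0.00622. Slc7a8 and Slc7a5 had log2 fold changes of -0.07 and -0.05 with adjusted p-values of 0.857 and 0.923, and Slc38a2 had -0.19 ± 0.09 (SE), adjusted p = 0.284. Slc7a5 had 30.9, 28.6, 21.1 and 19.6 RPM, Slc38a2 142, 142, 176 and 171 RPM, Slc7a1 50.8, 52.6, 48.9 and 53.4 RPM and Slc1a5 119.9, 115, 117 and 114 RPM in tumor_GEMy lungs. Slc6a14 had 62.7, 61.3, 77.8 and 53.2 RPM, Slc36a1 31.6, 27.2, 29.3 and 28.3 RPM and Slc38a10 214, 213, 193 and 213 RPM there. Each of these 7 overlapped the tumor_untreated libraries given above and did not pass. This comparison shares its tumor_untreated libraries with the one above, so a high value there raises that difference and lowers this one.

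Among treated lungs, those with a tumor differed in 5 members. Slc6a2 was called higher, or 2.38% of 42 against 3.85% of all genes, and Slc38a5, Slc7a10, Slc36a2 and Slc6a9 lower, or 9.52% against 6.58%. For all genes the split was 593 higher and 1014 lower, and 832 and 485 with median-of-ratios scaling. Slc38a5 had 22.1, 24.0, 25.7 and 24.5 RPM in tumor_GEMy and 45.4, 36.9, 37.8 and 34.6 RPM in naive_GEMy lungs, and Slc7a10 had 12.3, 12.4, 17.8 and 15.1 RPM in tumor_GEMy and 25.4, 19.6, 22.2 and 19.2 RPM in naive_GEMy lungs. Neither gene overlapped between the groups, as was so for 6 members downward and 5 upward, against 13.2% and 5.92% of all genes. Their log2 fold changes were -0.67 ± 0.13 (SE), adjusted p = 0.00371 and -0.58 ± 0.13 (SE), adjusted p = 0.0120. Slc36a2 had 20.8, 21.7, 26.5 and 27.8 RPM in tumor_GEMy lungs, against 34.9, 34.5, 35.7 and 31.3 RPM in naive_GEMy lungs, with a log2 fold change of -0.50 ± 0.12 (SE), adjusted p = 0.0142 and no overlap. Slc6a9, at 43.4, 38.6, 39.7 and 31.1 RPM in tumor_GEMy and 50.1, 51.0, 43.6 and 46.6 RPM in naive_GEMy lungs, had -0.33 ± 0.10 (SE), adjusted p = 0.0384, and Slc6a2 had 0.83 ± 0.24 (SE), adjusted p = 0.0366. Leaving out a library ended the Slc6a9 call in 6 and the Slc6a2 call in 5 of 16 fits, and Slc6a2 was 0.62 with an adjusted p of 0.101 without tumor_GEMy replicate 1. The Slc6a9 call also ended in 4 of 11 other settings, among them median-of-ratios scaling with an adjusted p of 0.132. With summed hemoglobin as a covariate all 5 calls ended, with values of -0.48 for Slc38a5, -0.34 for Slc7a10, -0.24 for Slc36a2, -0.33 for Slc6a9 and 0.60 for Slc6a2. Hemoglobin was higher in every tumor_GEMy replicate but the third than in every naive_GEMy library, so that covariate runs largely with the groups. The 5 members that rose in tumor_untreated over naive_untreated lungs were not called here, at 0.61 for Slc7a11 (adjusted p = 0.0616), 0.44 for Slc7a5 (0.0794), 0.42 for Slc7a8 (0.0709), 0.21 for Slc38a2 (0.144) and 0.17 for Slc7a1 (0.243). Groups did not overlap for Slc7a11, Slc7a8 and Slc7a1, and Slc7a11 was called in 5 of 26 alternative fits, with an adjusted p of 0.0184 without tumor_untreated replicate 4, and Slc7a5 in 2 of 27. The interaction, which is the difference between both tumor comparisons, passed for none of the 5 (adjusted p of 0.0581 for Slc38a2 to 0.727 for Slc7a1). Of cell type markers in tumor_GEMy over naive_GEMy lungs, 10 of 12 neutrophil, 11 of 12 cell cycle, 5 of 8 mast cell, basophil and eosinophil, 4 of 12 monocyte and macrophage, 3 of 10 T and NK cell and 3 of 9 erythroid genes were higher and 5 of 7 B cell genes lower. Their part in the member values was not tested.

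Whether the treatment effect itself differed with a tumor was tested as an interaction, which called Slc1a4 higher, or 2.38% of 42 members against 1.03% of all genes, and 0 lower against 3.94%. At an unadjusted p below 0.05, 6 members were higher and 3 lower, and voom called 1 higher and 0 lower. Slc1a4 had 37.0, 32.7, 34.7 and 36.2 RPM in tumor_GEMy and 30.1, 35.4, 30.1 and 27.3 RPM in tumor_untreated lungs, and 42.1, 36.9, 39.8 and 33.2 RPM in naive_GEMy and 50.6, 43.8, 40.5 and 48.7 RPM in naive_untreated lungs. The treated libraries lay toward the upper side with a tumor and toward the lower side without one. The treatment's log2 fold change was 0.20 with a tumor and -0.27 without, and neither passed alone. Their difference was 0.47 ± 0.13 (SE), adjusted p = 0.0480, and 12 of 16 fits without a library ended the call. Slc38a2 had a difference of -0.44 ± 0.13 (SE), adjusted p = 0.0581, just outside the threshold.

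The cell product and the lung shared Slc6a6, Slc3a2, Slc38a10 and Slc1a5 among their highest carriers, in a different order. By RPM per exonic kb the product was led by the taurine carrier Slc6a6 at 82.1, Slc7a5 at 55.6 and Slc3a2 at 47.5. Next came Slc38a2 and Slc38a10, both at 40.7, and Slc1a5 at 30.7. In naive_untreated lungs the order was led by Slc43a3 at 74.5 ± 6.99, Slc3a2 at 70.1 ± 8.62, Slc6a6 at 35.8 ± 1.28, Slc38a10 at 34.6 ± 1.61 and Slc1a5 at 31.9 ± 2.84 RPM per exonic kb (SD, n = 4). Slc6a6 had 222, 248, 232 and 299 RPM in tumor_GEMy, 258, 293, 296 and 248 RPM in tumor_untreated, 255, 264, 288 and 269 RPM in naive_GEMy and 299, 294, 318 and 297 RPM in naive_untreated lungs, against 693 RPM in the product, and it passed in no lung comparison. In the naive_untreated order Slc43a3 and Slc3a2 differed by less than their SDs. The product is 1 library, so no test applies and its intervals cover counting error only.

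Of 44 members with at least 0.5 RPM on either side, 8 were at least 4-fold higher in the product than the naive_untreated mean and 18 at least 4-fold lower, or 18.2% and 40.9%, against 9.18% and 28.8% of all genes. Slc7a5 had 206 RPM in the product (exact Poisson 95% interval 201 to 211) and 16.2 ± 1.89 RPM in naive_untreated lungs, a 12.7-fold difference. Slc7a8 was 6.03-fold, Slc38a1 5.55-fold, Slc7a1 5.39-fold and Slc7a11 4.73-fold higher. These, with Slc38a2 at 3.17-fold and so under the 4-fold cutoff, include all 5 members that were higher in tumor_untreated lungs. Both comparisons use the same naive_untreated libraries, so a low value there raises both. In tumor-free lungs that had received these cells, Slc7a8 was the 1 of the 5 called. The largest folds belonged to genes near 0 in lung. The betaine and GABA carrier Slc6a12 had 4.15 RPM (3.46 to 4.93) in the product, against 0.0358, 0.102, 0.141 and 0.0673 RPM in naive_untreated lungs, or 47.9-fold. Its neighbour Slc6a13, 5354 bases away and a GABA and taurine carrier, had 4.92 RPM (4.17 to 5.76) in the product and 0.143, 0.477, 0.879 and 0.235 RPM in naive_untreated lungs, or 11.3-fold. The dopamine carrier Slc6a3 had 0.739 RPM (0.469 to 1.11) in the product and 0.179, 0.102, 0.105 and 0.0673 RPM in naive_untreated lungs, or 6.51-fold. For these 3 genes each lung value rests on few reads.

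Several carriers of the lung had no reads in the product. Against a floor of 3 reads in that library, naive_untreated lungs were at least 927-fold higher for Slc6a2, 739-fold for Slc6a14, 469-fold for Slc1a3, 248-fold for Slc7a10 and 140-fold for Slc38a4. Slc36a2 had 0.482 RPM, Slc1a1 0.225 RPM and Slc7a2 0.193 RPM in the product, against means of 33.2 ± 2.43, 36.4 ± 2.64 and 53.2 ± 2.92 RPM in naive_untreated lungs. Slc38a5 had 3 reads. Every one of the 4 members that fell most in tumor_untreated over naive_untreated lungs was thus at or near 0 in the product. The other called falls there were mixed. Slc38a10 and Slc1a5 had 261.5 and 127.8 RPM in the product. Slc1a4, Slc6a8, Slc6a9 and Slc7a4 had 7.43, 7.07, 4.98 and 1.67 RPM, and Slc1a3, Slc38a11, Slc6a14, Slc6a17 and Slc6a20a had at most 1 read. Slc6a2 and Slc38a4, with no reads in the product, were not called in that lung comparison. Of 44 members, 18 were at least 4-fold lower in the product. The product also carried markers of platelets and of mast cells, basophils and eosinophils, at 1427 and 575 RPM in sum, beside 43.0 RPM of Slc6a4, and their part in that value was not tested.

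**Figure D4:**
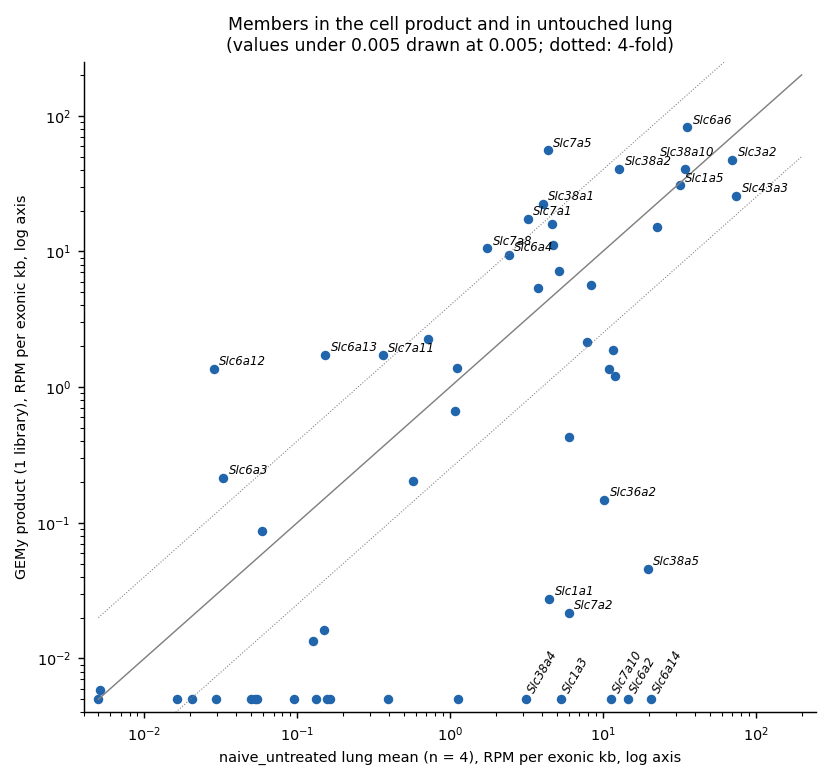
RPM per exonic kb of each member in the cell product (1 library, vertical) against the naive_untreated mean (n = 4, horizontal), both axes log, with dotted lines at 4-fold. Slc7a5 and Slc6a12 stand above the upper line, and Slc6a14, Slc6a2, Slc7a10, Slc1a3 and Slc38a4 lie at the bottom with 0 reads in the product.

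The members under the minimum included Slc1a6, Slc1a7, Slc36a3, Slc38a3, Slc38a8, Slc3a1, Slc6a3, Slc6a7, Slc6a12, Slc6a13, Slc6a20b, Slc7a3 and Slc7a13. Their highest lung value was 0.879 RPM, of Slc6a13 in naive_untreated replicate 3. Slc3a1, the heavy chain of the kidney cystine carrier, shares 766 bases with Prepl on the opposite strand.

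Genes that use or sense amino acids moved in both directions with the tumor. Of 34 tested genes of the amino acid response through ATF4, 11 rose and 7 fell in tumor_untreated over naive_untreated lungs, where 14.7% of all genes rose and 26.0% fell, the background for every list count with the tumor given here. Atf3, a stress factor of that response, was at 62.0 ± 9.95 RPM in tumor_untreated and 16.7 ± 5.10 RPM in naive_untreated lungs (log2 1.90, adjusted p = 8.34e-07). The tryptophanyl tRNA synthetase gene Wars, which interferon-gamma also induces, was at 415 ± 101 RPM in tumor_untreated and 188 ± 22.4 RPM in naive_untreated lungs. It was at 1509 ± 145 RPM in tumor_GEMy and 1516 ± 234 RPM in naive_GEMy lungs, log2 changes of 1.89 over tumor_untreated and 3.00 over naive_untreated lungs (adjusted p = 3.18e-06 and 1.83e-09, SD with n = 4). In the treated comparisons 3 of the 34 were higher and 1 lower without a tumor, 2 higher and 1 lower with one, against 5.12% and 1.58% of all genes without a tumor and 2.42% and 2.81% with one.

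Of 21 glutathione and NRF2 target genes, 9 rose and 7 fell with the tumor. Glutathione reductase Gsr was at 199.9 ± 25.6 RPM in tumor_untreated and 71.5 ± 4.94 RPM in naive_untreated lungs (log2 1.47, adjusted p = 1.32e-08), and gamma-glutamyl transferase Ggt1 had a log2 change of 1.84. In tumor_GEMy lungs Gsr was at 132 ± 14.7 RPM, a log2 change of -0.60 from tumor_untreated (adjusted p = 0.00181), and heme oxygenase Hmox1 changed by -0.99. Those 2 were the members of that list called lower, and 0 were called higher, against 2.81% and 2.42% of all genes. Without a tumor, 3 were higher and 0 lower in naive_GEMy over naive_untreated lungs, led by Bach1 at 0.41. Of all genes 5.12% were higher and 1.58% lower there.

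Arginine and tryptophan enzymes had 5 higher and 1 lower of 14 with the tumor. Arginase Arg1 was at 2.77 ± 0.807 RPM in tumor_GEMy, 15.2 ± 8.39 RPM in tumor_untreated and 2.29 ± 0.135 RPM in naive_untreated lungs (log2 -2.13 and 2.32, adjusted p = 0.000452 and 1.50e-05). The tryptophan-degrading enzyme Ido1 was at 72.8 ± 27.7 RPM in tumor_GEMy, 19.6 ± 15.0 RPM in tumor_untreated, 49.2 ± 11.7 RPM in naive_GEMy and 1.28 ± 0.0920 RPM in naive_untreated lungs. The lysosomal peptide carrier Slc15a3 was called higher both in tumor_untreated (1.26) and in naive_GEMy (0.80) over naive_untreated lungs, which share those controls. Of 19 tested carriers of other families 5 rose and 1 fell with the tumor. In naive_GEMy over naive_untreated lungs 2 rose and 0 fell, against 5.12% and 1.58% of all genes. In tumor_GEMy over tumor_untreated lungs 0 passed, where 2.42% of all genes were higher and 2.81% lower. Of 33 mTORC1 sensing genes 2 rose and 12 fell with the tumor, among them the leucine sensor Sesn2 at 0.67 and the GATOR subunit Wdr24 at -0.40, and of 15 glutamine and branched-chain enzymes 3 rose and 5 fell. Median log2 changes of the 6 lists with the tumor lay between -0.17 and 0.14. Only that of the glutamine and branched-chain enzymes was below the -0.09 of all genes. Sesn2 belongs to 2 of the lists.

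Cell type markers moved in the same comparison. In tumor_untreated over naive_untreated lungs 10 of 12 neutrophil, 12 of 12 monocyte and macrophage, 7 of 10 T and NK cell and 11 of 12 cell cycle markers were higher and none lower. Neutrophil markers summed to 1840 to 5730 RPM in tumor_GEMy, 3332 to 5590 RPM in tumor_untreated, 333 to 525 RPM in naive_GEMy and 367 to 515 RPM in naive_untreated lungs. Lower in tumor_untreated lungs, with 0 higher, were 5 of 8 alveolar type 2, 3 of 8 alveolar type 1, 6 of 9 airway, 7 of 10 fibroblast and smooth muscle, 5 of 10 endothelial and 5 of 7 B cell markers. In naive_GEMy over naive_untreated lungs 8 of 12 monocyte and macrophage, 9 of 12 cell cycle and 4 of 10 T and NK cell markers were higher. There 1 of 10 endothelial markers was lower, and 0 of 12 neutrophil markers passed in either direction. Of all genes 5.12% were higher and 1.58% lower in that comparison. No list had a marker at 0 in all libraries of a lung group. The product held 3029 RPM of neutrophil, 3382 RPM of monocyte and macrophage and 4127 RPM of cell cycle markers, and 5 of its 9 airway markers were at 0. The part of these shifts in the carrier changes was not tested.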

How the data were processed

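Sequencing was of total RNA from flash frozen lung, per the labels' protocols. STAR 2.7.3a, Partek and the genome build mm10 are named in the submitters' processing notes, and the annotation and strand setting are not given in the sources used here. The authors deposited FPKM for each gene and library. FPKM times the listed genomic span in kb summed to 1000000 in every column, so it is reads per 1000000 assigned reads (RPM). Within 0.02 of a read, 86.7 to 88.4% of low values were whole, which gave the depth of each library. Exon lengths for RPM per exonic kb came from GENCODE vM21 for 56 of 56 symbols.

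Lung values were tested as log2(RPM + 0.5), so fold changes understate those of genes near that value, for 15422 genes with at least 0.5 RPM in at least 4 lung libraries. The fit in limma 3.58.1 (R 4.3.3) had 4 group means over 16 lungs, trend and robust moderation and 2-sided tests, with Benjamini-Hochberg adjustment over all genes within each comparison at 0.05. It recovered planted changes in simulated data. The simulation gave every gene the same spread and planted changes larger than those of several called members, so it does not cover those calls. Means and SD are of RPM over 4 libraries. The product was compared with the naive_untreated mean at 4-fold, with a floor of 3 reads and exact 95% Poisson intervals, which cover counting error only.

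The members and gene lists were chosen with earlier results of these data known. Values in every library of the groups compared were to be given for the 4 largest called rises and falls of each comparison, called interactions, 10 fixed members and the 6 highest product levels and 4 highest folds, and for each list the 2 most changed called genes were to be named, of which some are left out. Single values of other members were chosen after they were seen, as were the adipocyte and noradrenergic neuron markers. Same-numbered libraries deviated together in part, with 12 of 24 pairs over a correlation of 0.1 and a range of -0.249 to 0.493. The labels do not say that the numbers pair libraries, so they were not used as pairs in the main fit. Alternatives were other pseudocounts and minimums, FPKM, median-of-ratios and quantile scaling, the compared groups alone, a replicate block, voom, a hemoglobin covariate and leaving out each library. Figures were drawn with matplotlib 3.10.9.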

Additional observations from a re-analysis of the deposited data

Results flagged for a closer look

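Of 96 sets of 4 libraries checked for 24 named members, 8 had a library far from the others, and chance gives about 1 in 20. The low ones were Slc3a2 in naive_GEMy replicate 3 (239 RPM, the nearest other at 265), Slc7a1 in tumor_untreated replicate 1 (35.4 RPM against 48.6), Slc7a10 in tumor_untreated replicate 4 (10.3 RPM against 13.7), and Slc38a10 in tumor_GEMy replicate 3 (193 RPM against 213) and tumor_untreated replicate 4 (171 RPM against 201). The high ones were Slc6a2 in tumor_untreated replicate 1 (211 RPM against 108), Slc6a9 in naive_untreated replicate 4 (54.5 RPM against 47.7) and Slc6a13 in tumor_GEMy replicate 4 (0.592 RPM against 0.245).

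The IL12-GEMy effect differed with the tumor for Slc1a4, by 0.47 on the log2 scale (limma interaction, adjusted p = 0.0480). Slc38a2 and Slc6a14 moved in opposite directions, each of the 4 treated libraries lying on one side of the untreated mean with a tumor and on the other side without one. Their differences were -0.44 (adjusted p = 0.0581) and 0.62 (adjusted p = 0.209), and neither passed the threshold.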

How the results depend on the processing

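Of 28 called member values, 13 kept their call in every alternative run that tested the gene, 15 lost it in at least 1, and 0 changed direction. In tumor_untreated over naive_untreated lungs the counts of 5 higher and 15 lower became 8 and 9 with median-of-ratios scaling. They were 4 and 10 with only the compared groups and 5 and 10 with the hemoglobin covariate. On the FPKM scale the higher count was 3, with Slc7a11 and Slc7a8 under its minimum and not tested. Of the falls, those of Slc1a1, Slc38a11, Slc6a17 and Slc6a20a could not be tested there for the same reason. In naive_GEMy over naive_untreated lungs the 1 higher call became 0 with a pseudocount of 1 RPM, no minimum, quantile normalization, voom or the hemoglobin covariate. The higher count was also 0 on the FPKM scale, where Slc7a8 was under the minimum and not tested. It was 2 with median-of-ratios scaling and 4 with only the compared groups. The lower count of 0 became 2 with only the compared groups and 1 with the hemoglobin covariate. In tumor_GEMy over tumor_untreated lungs the 1 lower call became 0 with no minimum or only the compared groups, and 2 with quantile normalization or the hemoglobin covariate. The lower count was also 0 on the FPKM scale, where Slc38a9 was under the minimum and not tested. In tumor_GEMy over naive_GEMy lungs the 1 higher call became 2 with quantile normalization, 3 with only the compared groups and 0 with the hemoglobin covariate, which also took the lower count of 4 to 0. The Slc6a9 fall in that comparison also ended with median-of-ratios scaling, quantile normalization and only the compared groups. For the interaction the 1 higher call became 0 with no minimum and the lower count of 0 became 1 with median-of-ratios scaling. Apart from the genes under the FPKM minimum, the cause was not tested for any of these.

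The replicate block rests on numbers that the labels do not describe as pairs. It gave 3 higher in naive_GEMy over naive_untreated, and 1 higher and 3 lower in tumor_GEMy over tumor_untreated. The same block gave 4 higher in tumor_GEMy over naive_GEMy, and 2 higher and 2 lower for the interaction. Leaving out 1 library gave 4 to 6 higher and 9 to 16 lower in tumor_untreated over naive_untreated, 0 to 2 and 0 to 1 in naive_GEMy over naive_untreated, 0 to 1 and 0 to 2 in tumor_GEMy over tumor_untreated, 0 to 4 and 3 to 4 in tumor_GEMy over naive_GEMy, and 0 to 1 and 0 to 3 for the interaction. The product counts of 8 higher and 18 lower were 8 to 9 and 18 to 19 without a naive_untreated library, and the higher count was 3 at 8-fold and 14 at 2-fold. With 4 libraries a group, calls near the threshold turn on single libraries, and depth limits the members under the minimum, which rest on few reads.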
